A study of Mus musculus with 21 samples.

Results

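The mRNAs that encode hypothalamic and pituitary neuropeptides were followed in the brains of 21 SAMP8 mice. The 10 genes, chosen by name, were Avp (vasopressin), Oxt (oxytocin), Pmch (melanin-concentrating hormone), Hcrt (hypocretin, also called orexin), Trh (thyrotropin-releasing hormone), Gal (galanin), Agrp (agouti-related peptide), Pomc (proopiomelanocortin), Cartpt (the CART peptide) and Ghrh (growth hormone-releasing hormone). Of these, 9 were among the 16318 genes measured and all 9 entered the tests, while Agrp was not analysed here.

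SAMP8 is an inbred mouse strain that ages early and is used as a model of sporadic Alzheimer's disease. Mice were dosed subcutaneously on alternate days for 8 weeks from 4 months of age, either with phosphate-buffered saline (PBS, 6 females and 6 males) or with 1 mg/kg of HsTX1[R14A], a peptide that blocks the potassium channel Kv1.3 (3 females and 6 males). All mice were SAMP8, so there was no strain with normal ageing to compare with. RNA was taken from the whole brain at 6 months of age, with 1 library per mouse, and the mice are named here by the number in their labels. The comparison asks how the peptide altered gene expression in the brain.

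Neuropeptides are cut from larger precursor proteins, stored in dense-core vesicles and released to act on G protein-coupled receptors. Vasopressin and oxytocin are made by large neurons of the supraoptic and paraventricular nuclei that release them into the blood from the posterior pituitary. Melanin-concentrating hormone and hypocretin come from separate but intermingled neurons of the lateral hypothalamus, and Pomc, Agrp and Ghrh mark neurons of the arcuate nucleus. Trh, Gal and Cartpt are made in the hypothalamus and in other brain regions as well, and Pomc is also made by the corticotrophs and melanotrophs of the pituitary.

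The summed level of the 9 mRNAs ran from 9.91 to 417 CPM in PBS-treated mice and from 16.1 to 187 CPM in HsTX1[R14A]-treated mice. Library totals lay between 14917171 and 47613770 rounded counts, so 3 counts, taken here as the limit of detection, corresponded to 0.0609 to 0.213 CPM. CPM is the estimated count of a gene scaled to the size of its library, after the size was adjusted by the trimmed mean of M-values (TMM). A whole brain holds few of these neurons, and in bulk RNA fewer cells of a type and less RNA per cell cannot be told apart. The label of the tissue was checked against 24 genes that mark hypothalamic neurons, such as the transcription factors Nkx2-1 and Otp, of which 18 were in the table. Their summed level ran from 21.1 to 107 CPM in PBS-treated mice (median 68.6) and from 40.8 to 142 CPM in HsTX1[R14A]-treated mice (median 58.8), and Sim1, Fezf1, Ghsr, Six6, Foxb1 and Prdm12 were at 0 in at least 1 mouse. Of 12 pituitary markers, 3 were in the table. Gh (growth hormone) was at 0 counts in 12 mice and Prl (prolactin) in 8 mice, and each exceeded 1 CPM in 3 mice. Of 9 cerebellum markers, Gabra6 ran from 0 to 90.1 CPM over the mice and Pcp2 from 0 to 38.9 CPM. Cbln3 ran from 0.0518 to 128 CPM and Fat2 from 0.0366 to 51.2 CPM. Car8, Cbln1, Itpr1, Calb1 and Il16 stayed at 1.51 CPM or more. Whether each RNA sample held all brain regions in like amounts was not tested.

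Because the 2 neurohypophysial genes are close copies, their identity was examined first. Oxt (GRCm38 chr2:130576173-130577054, plus strand) and Avp (chr2:130580620-130582554, minus strand) are neighbours that are transcribed toward each other, with 3565 bases between them. They share an identical coding stretch of 127 bases, spliced from exons 1 and 2 of 3 in both genes, which codes for part of neurophysin, the carrier of both hormones. The stretch lies within chr2:130581133-130582411 for Avp and chr2:130576328-130576715 for Oxt, and it is shown because a read that falls inside it fits both genes.

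Avp and Oxt, shared coding stretch: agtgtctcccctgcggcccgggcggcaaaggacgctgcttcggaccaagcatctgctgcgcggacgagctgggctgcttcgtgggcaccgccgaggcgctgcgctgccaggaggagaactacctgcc

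Such reads were divided by estimation when the counts were made. The division left a trace in 3 mice, whose estimated counts were fractional for both genes and for no other member. PBS-treated female 103 had 597.379 counts of Avp and 881.621 of Oxt, which sum to 1479 whole counts. PBS-treated male 102 had 524.326 and 964.674 counts, with a sum of 1489, and PBS-treated male 91 had 1380.211 and 801.789 counts, with a sum of 2182. In the other 18 mice both counts were whole. The split of Avp from Oxt is therefore an estimate. Pmch overlaps Parpbp on the other strand, and whether strand was used in counting is not given in the sources used here.

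The bases just before the RefSeq transcription start of each gene are shown as a description. RefSeq (GRCm38.p6) gave 10 start sites for the 9 genes. Each line holds the 60 bases before a start, read in the direction of the gene, and capitals mark TATAA, or CATAAA, found on either strand between 45 and 15 bases before the start.

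Avp (chr2:130582589-130582648, minus strand): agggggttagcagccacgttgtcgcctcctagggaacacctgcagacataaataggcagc

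Oxt (chr2:130576109-130576168, plus strand): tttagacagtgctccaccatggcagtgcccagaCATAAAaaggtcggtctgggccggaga

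Pmch (chr10:88091012-88091071, plus strand): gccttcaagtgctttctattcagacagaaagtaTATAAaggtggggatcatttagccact

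Hcrt (chr11:100762932-100762991, minus strand): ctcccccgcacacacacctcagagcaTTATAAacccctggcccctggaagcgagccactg

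Trh (chr6:92244651-92244710, minus strand): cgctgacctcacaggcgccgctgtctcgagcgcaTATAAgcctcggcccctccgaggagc

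Gal (chr19:3414545-3414604, minus strand): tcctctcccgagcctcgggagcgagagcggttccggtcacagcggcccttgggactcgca

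Pomc (chr12:3954885-3954944, plus strand): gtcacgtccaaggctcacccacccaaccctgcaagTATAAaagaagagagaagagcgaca

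Cartpt (chr13:99900684-99900743, minus strand): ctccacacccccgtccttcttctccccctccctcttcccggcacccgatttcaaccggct

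Ghrh, first site (chr2:157337427-157337486, minus strand): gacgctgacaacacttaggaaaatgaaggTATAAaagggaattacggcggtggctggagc

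Ghrh, second site (chr2:157346656-157346715, minus strand): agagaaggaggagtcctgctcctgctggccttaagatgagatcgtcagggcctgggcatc

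TATAA stood in 5 of the 10 windows and CATAAA in 1, so 6 of the 9 genes held either. Over all 32851 mouse promoters of that table, 4.87% held TATAA in the same window, 1.42% held CATAAA and 6.24% held either. In Hcrt the letters matched on both strands with an overlap, which gives the capitals there 1 more base. In Avp the letters CATAAA began 14 bases before the start, outside the window searched. Gal, Cartpt and the second Ghrh site held none of these letters in the 60 bases shown. A match describes letters and no more, and its relation to the levels of the genes over mice was not tested.

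Levels differed widely between genes and, within a gene, between mice. Per kilobase of the longest transcript, the median over 21 mice was highest for Avp (14.6 CPM per kb), followed by Cartpt (9.52), Oxt (9.49), Trh (7.35), Gal (2.68), Pmch (2.64), Pomc (1.56), Ghrh (0.294) and Hcrt (0.238). Neighbours in this order were compared within mice on the log2 scale (pseudocount 0.1 CPM per kb, two-sided permutation test with 100000 resamples, Benjamini-Hochberg adjusted). Of the 8 neighbouring pairs, 2 differed at an adjusted p of at most 0.05. Trh exceeded Gal in 21 of 21 mice (mean log2 difference 1.23 ± 0.55 SD, adjusted p = 8e-05), and Pomc exceeded Ghrh in 20 of 21 mice (1.66 ± 1.30 SD, adjusted p = 8e-05). The other 6 neighbours did not pass, with adjusted p between 0.0578 and 0.832, and the order of medians was not that of the means for 3 of them (Avp against Cartpt, Gal against Pmch, and Ghrh against Hcrt).

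Vasopressin mRNA covered a 270-fold range between mice. In PBS-treated mice Avp ran from 0.162 CPM to 43.8 CPM with a median of 9.15 CPM (13.8 ± 15.6 CPM, mean ± SD, n = 12), and in HsTX1[R14A]-treated mice from 0.199 to 31.3 CPM with a median of 6.77 CPM (12.8 ± 12.8, n = 9). The groups overlapped over nearly their whole range. PBS-treated male 91 and female 103 held the most, and PBS-treated males 101 and 82 and HsTX1[R14A]-treated male 92 were at 0.199 CPM or less, with 4 or 5 counts each.

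Oxytocin mRNA was as uneven. Oxt ran from 0.0649 to 62.6 CPM in PBS-treated mice with a median of 7.08 CPM (15.4 ± 18.5 CPM, n = 12), and from 0.298 to 30.7 CPM in HsTX1[R14A]-treated mice with a median of 3.97 CPM (8.05 ± 10.2, n = 9). PBS-treated female 103 was highest. PBS-treated males 101 and 82, with 2 counts each, were below the limit of detection.

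The ratio of Avp to Oxt counts was not fixed. Among the 18 mice with at least 10 counts of both, it ran from 0.189 in PBS-treated female 105 to 6.03 in HsTX1[R14A]-treated female 98, with a median of 1.00. Mice with much of the one had much of the other, yet their share varied between mice by an SD of 1.34 on the log2 scale.

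Pmch had the widest spread of the set. In PBS-treated mice it ran from 0.422 to 201 CPM with a median of 3.74 CPM (26.4 ± 57.9 CPM, n = 12), and in HsTX1[R14A]-treated mice from 0.178 to 68.5 CPM with a median of 1.97 CPM (17.4 ± 28.2, n = 9). The 5 highest mice were PBS-treated female 103 (201 CPM), HsTX1[R14A]-treated male 88 (68.5), HsTX1[R14A]-treated female 71 (63.9) and PBS-treated females 85 (62.0) and 84 (25.8). These 5 held 89.2% of the Pmch signal summed over the 21 mice.

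Hcrt, the wake-promoting peptide of the same hypothalamic area, was highest in the same 5 mice. It stood at 16.1 CPM in PBS-treated female 103, 12.8 CPM in HsTX1[R14A]-treated female 71, 10.2 CPM in HsTX1[R14A]-treated male 88, 4.89 CPM in PBS-treated female 84 and 4.44 CPM in PBS-treated female 85, and these 5 held 92.7% of the summed signal. In 13 of 21 mice Hcrt had fewer than 10 counts, and in HsTX1[R14A]-treated males 74 and 81 it had 0, which at 3 counts allows up to 0.082 and 0.178 CPM. The median was 0.148 CPM in PBS-treated mice and 0.0518 CPM in HsTX1[R14A]-treated mice. Among the 8 mice with at least 10 counts of both genes, Pmch exceeded Hcrt 4.99-fold to 16.1-fold with a median of 8.69-fold. This ratio had an SD of 0.643 on the log2 scale over those 8 mice. The SD of 1.34 for Avp over Oxt came from 18 mice, so the 2 values do not compare like sets.

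**Figure D1:**
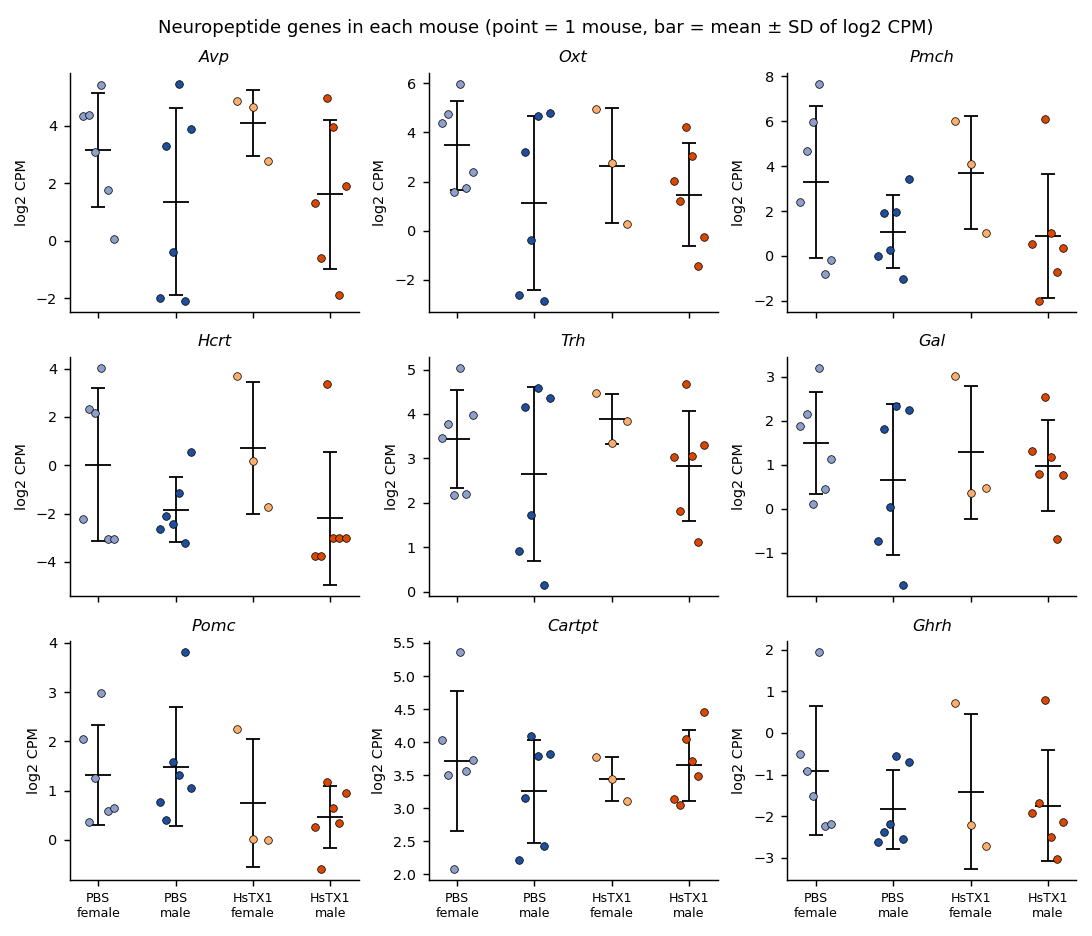
Each panel plots the log2 CPM (prior count 2) of 1 gene on the y axis against the 4 groups of mice on the x axis, where HsTX1 stands for HsTX1[R14A], a point is 1 mouse and the bars give mean ± SD. For Avp, Oxt, Pmch and Hcrt the mice of a group spread over several log2 units, and all 4 groups overlap for each of the 9 genes.

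Trh, which drives thyrotropin release, and Gal, a peptide widely made in hypothalamic neurons, were present in every mouse. Trh ran from 1.04 to 32.6 CPM in PBS-treated mice with a median of 12.2 CPM (12.5 ± 10.001 CPM, n = 12) and from 2.08 to 25.5 CPM in HsTX1[R14A]-treated mice with a median of 9.71 CPM (11.5 ± 7.86, n = 9). Gal ran from 0.227 to 9.08 CPM (median 2.78, 3.02 ± 2.56, n = 12) and from 0.546 to 8.02 CPM (median 1.66, 2.74 ± 2.47, n = 9). For both genes the lowest mouse was PBS-treated male 101 and the highest PBS-treated female 103.

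Cartpt, an appetite-reducing peptide also found outside the hypothalamus, was the steadiest member. It ran from 4.16 to 41.0 CPM in PBS-treated mice with a median of 12.5 CPM (13.5 ± 9.73 CPM, n = 12) and from 8.24 to 21.9 CPM in HsTX1[R14A]-treated mice with a median of 11.2 CPM (12.5 ± 4.44, n = 9). Ghrh, which drives growth hormone release, was near the limit of detection, with fewer than 10 counts in 14 of 21 mice. Its highest values were 3.76 CPM in PBS-treated female 103, 1.66 CPM in HsTX1[R14A]-treated male 88 and 1.57 CPM in HsTX1[R14A]-treated female 71.

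Pomc, the precursor of melanocortins, adrenocorticotropin and beta-endorphin, had 1 mouse far from the others. In PBS-treated mice it ran from 1.21 to 13.9 CPM with a median of 2.16 CPM (3.54 ± 3.75 CPM, n = 12), and in HsTX1[R14A]-treated mice from 0.593 to 4.70 CPM with a median of 1.19 CPM (1.67 ± 1.24, n = 9). The value of 13.9 CPM belonged to PBS-treated male 101, the mouse with the lowest Avp, Oxt, Trh and Gal. The other 5 PBS-treated males lay between 1.25 and 2.93 CPM.

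The spread between mice was set beside that of genes at a like level. The SD of log2 CPM over the 21 mice was 2.76 for Pmch, 2.64 for Hcrt, 2.57 for Oxt and 2.57 for Avp, which placed these 4 between rank 22 and rank 34 of 16303 tested genes. Among genes whose mean log2 CPM lay within 0.5 of their own, 99.6% had a smaller SD than Avp, 99.6% than Oxt, 99.6% than Pmch and 99.7% than Hcrt. The SD was 1.37 for Trh, 1.33 for Ghrh, 1.30 for Gal, 1.04 for Pomc and 0.74 for Cartpt, which held rank 879. Genes at the level of Cartpt had a median SD of 0.27. These ranks are a description and carry no test.

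Whether HsTX1[R14A] changed the peptide mRNAs was tested with edgeR's quasi-likelihood test on all genes, with sex in the model. None of the 9 genes passed an adjusted p of 0.05 (Benjamini-Hochberg), whereas 31.6% of the 16303 tested genes did, and 1 of the 9 had an unadjusted p under 0.05 against 46.4% of all tested genes. The median log2 fold change over the 9 genes was -0.02, beside -0.01 over all tested genes. DESeq2 called 1 of the 9 (Pomc) and limma's voom called 0.

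For the neurohypophysial pair, the estimated log2 fold change (HsTX1[R14A] minus PBS) was -0.06 ± 0.81 (SE) for Avp, with a 95% confidence interval from -1.73 to 1.62 and an edgeR adjusted p of 0.963. For Oxt it was -0.77 ± 0.83 with an interval from -2.49 to 0.96 (edgeR adjusted p = 0.475). In the lateral hypothalamic pair both estimates were positive, although both medians were lower in HsTX1[R14A]-treated mice. Pmch gave 0.86 ± 1.16 (interval -1.54 to 3.27, edgeR adjusted p = 0.571) and Hcrt 1.33 ± 1.11 (interval -0.97 to 3.63, edgeR adjusted p = 0.349). Of the 9 treated mice, 3 lay above the PBS median for Pmch and 4 for Hcrt. With 1 mouse left out the estimates ran from -1.23 to 1.35 for Pmch and from -0.66 to 1.81 for Hcrt. The intervals of Avp and Pmch reached beyond 1 log2 unit on both sides of 0, that of Oxt on the lower side and that of Hcrt on the upper side.

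Narrower bounds were given by Cartpt, Gal, Trh and Ghrh, the last of which was near the limit of detection. The log2 fold change was -0.02 ± 0.33 for Cartpt (interval -0.71 to 0.67), -0.02 ± 0.52 for Gal (interval -1.11 to 1.06), -0.06 ± 0.51 for Trh (interval -1.13 to 1.00) and 0.18 ± 0.70 for Ghrh (interval -1.27 to 1.64), and their edgeR adjusted p-values lay between 0.852 and 0.98.

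Pomc was the member with an unadjusted p under 0.05. Its log2 fold change was -1.05 ± 0.48 (interval -2.04 to -0.06, edgeR adjusted p = 0.0897), and 2 of 9 HsTX1[R14A]-treated mice lay above the PBS median. Without PBS-treated male 101 the log2 fold change was -0.48 (edgeR adjusted p = 0.317), and without HsTX1[R14A]-treated female 71 it was -1.57 (edgeR adjusted p = 0.0379). For the Pomc treatment effect DESeq2 gave -1.07 with an adjusted p of 0.0474. Whether Pomc passed thus depended on the tool and on single mice, while the estimate was negative under each alternative that was run.

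The pituitary markers Gh and Prl were high in those 2 mice, and Lhb was not. Gh stood at 17.5 CPM in PBS-treated male 101, 7.46 CPM in HsTX1[R14A]-treated female 71 and 3.30 CPM in PBS-treated female 85, and at 0.683 CPM or less in the other 18 mice. Prl stood at 16.6 CPM in female 71, 5.61 CPM in female 85 and 2.50 CPM in male 101, and at 0.994 CPM or less elsewhere. Lhb, a subunit of luteinizing hormone, stood at 0.357 CPM in male 101, 0.743 CPM in female 71 and 0.555 CPM in female 85, within its range over all mice of 0 to 0.993 CPM. Over the 3 pituitary markers in the table (Gh, Prl and Lhb), the summed level ran from 0.321 to 20.3 CPM in PBS-treated mice and from 0.152 to 24.8 CPM in HsTX1[R14A]-treated mice. The mean log2 level of these 3 markers correlated with Pomc over mice (Pearson r = 0.69, permutation p adjusted over 144 relations 0.00704, Spearman rho 0.62 with adjusted p = 0.0129), with r = 0.47 once the 2 mice farthest from the median were left out. Within the name forms of the libraries described below, r was 0.67 and 0.60. PBS-treated female 103, with the second highest Pomc (7.81 CPM), had 0.142 CPM of Gh and 0.994 CPM of Prl. The part of pituitary RNA in the Pomc values was not tested.

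**Figure D2:**
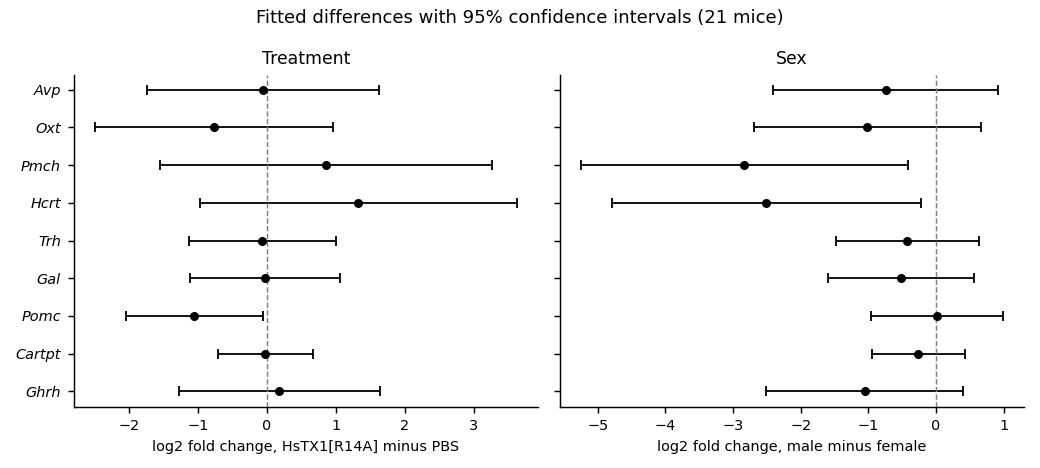
Points show the log2 fold change of each gene on the x axis (left, HsTX1[R14A] minus PBS, and right, male minus female) from the edgeR fit of 21 mice, and bars the 95% confidence interval. The treatment interval of Pomc and the sex intervals of Pmch and Hcrt leave out 0, and none of the 9 genes passed after adjustment over all genes in either comparison.

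Both sexes were present in both arms, and the same model tested sex. None of the 9 genes passed an adjusted p of 0.05, as against 0.0552% of all tested genes (9 genes), and 2 of the 9 had an unadjusted p under 0.05 beside 10.8% of all tested genes. The 2 were the lateral hypothalamic pair. Pmch ran from 0.504 to 201 CPM in females with a median of 16.96 CPM (n = 9) and from 0.178 to 68.5 CPM in males with a median of 1.29 CPM (n = 12). The fitted log2 difference, male minus female, was -2.83 ± 1.16 (SE, interval -5.25 to -0.42, edgeR adjusted p = 0.446). Hcrt had a median of 1.06 CPM in females and 0.070 CPM in males, with a log2 difference of -2.51 ± 1.10 (interval -4.79 to -0.23, edgeR adjusted p = 0.446). For both genes 7 of 9 females lay above the male median. With the name form of the libraries as a covariate the Pmch sex effect was -1.86 (edgeR adjusted p = 0.425) and the Hcrt sex effect -1.87 (edgeR adjusted p = 0.418), and neither had an unadjusted p under 0.05.

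HsTX1[R14A]-treated male 88 was the male with high Pmch and Hcrt. Without it the Pmch sex and Hcrt sex effects, as log2 differences, were -4.12 for Pmch (edgeR adjusted p = 0.142) and -4.27 for Hcrt (edgeR adjusted p = 0.174), and without PBS-treated female 103 they were -1.88 and -1.86 (edgeR adjusted p = 0.176 and 0.197). Of the other members, 6 had a lower estimate in males and Pomc a higher one (0.02 ± 0.47), with differences from -1.05 for Ghrh to -0.26 for Cartpt among the 6. The 18 hypothalamus identity genes had a median log2 difference of -0.57 between males and females, beside -0.01 over all tested genes, and 0 of the 18 passed. Their summed level had a median of 77.4 CPM in females and 57.8 CPM in males. With the mean of these genes as a covariate the log2 differences were -1.86 for Pmch, -1.69 for Hcrt, and the Oxt sex effect was -0.10.

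The treatment effect was also compared between the sexes by an interaction term. None of the 9 genes passed, and over all genes 0% passed after adjustment and 1.66% had an unadjusted p under 0.05, which none of the 9 reached. The largest estimate was 2.68 ± 2.13 for Pmch (treatment effect in males minus that in females, edgeR adjusted p = 1). With 3 treated females this comparison had little precision, as the intervals for Pmch (-1.75 to 7.11) and Hcrt (-2.39 to 6.60) show.

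The peptides rose and fell together from mouse to mouse. Of the 36 pairs of the 9 genes, 27 were correlated over the 21 mice with an adjusted p of at most 0.05 (Pearson r of log2 CPM, two-sided permutation test with 100000 resamples, Benjamini-Hochberg over 36 pairs), and the median r was 0.64. Correlation over these mice was common in the whole table. Of all 132885753 pairs of tested genes, 20.7% reached the lowest r that passed here (0.46) or more, with a median r of 0.002. A further 20.4% were as strong with a negative sign, so 41.1% reached that size in either sign. Of the 36 pairs of members 75.0% reached it, all with a positive r. By Spearman's rho 28 pairs passed. Leaving out Pomc and Cartpt, all 21 pairs of the other 7 genes passed, with r between 0.58 and 0.96. PBS-treated female 103 was among the 5 highest mice for 9 of 9 genes, HsTX1[R14A]-treated female 71 for 8 and HsTX1[R14A]-treated male 88 for 7.

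The closest pair was Pmch and Hcrt, with r = 0.96 (Spearman rho 0.93, adjusted p = 4.5e-05 and 6e-05) and r = 0.94 without the 2 mice farthest from the median of Pmch. In 13 of the 21 mice Hcrt had fewer than 10 counts, so many of its values in this r lay near the limit of detection. Oxt and Gal followed at r = 0.94 (rho 0.93), then Trh and Gal at 0.92 (rho 0.89), Avp and Oxt at 0.89 (rho 0.87) and Oxt and Trh at 0.87 (rho 0.86), all with the same adjusted p-values for r and rho as Pmch and Hcrt. The permutations could give no smaller raw p than 1e-05. The part of the divided reads in the r of Avp and Oxt was not tested.

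Pomc stood apart from the others. Its r with the 8 other genes ran from -0.02 (Trh) to 0.46 (Ghrh), and 1 of 8 pairs passed (Pomc and Ghrh, adjusted p = 0.0449, rho 0.48). Without PBS-treated male 101, 31 of all 36 pairs passed. Among HsTX1[R14A]-treated mice, r of Pomc with the others was between 0.55 and 0.73. For Cartpt, 5 of 8 pairs passed with r up to 0.64 (Gal), and without the 2 mice farthest from the x-axis median the lowest of these 8 values of r was 0.01.

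**Figure D3:**
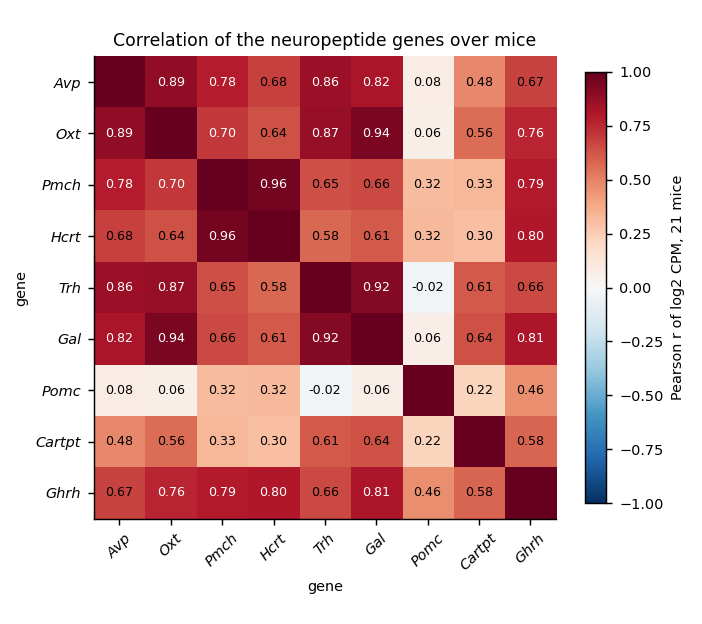
The grid shows Pearson's r of log2 CPM over 21 mice for each of the 36 pairs of genes, on a color scale from -1 (blue) to 1 (red), with genes on both axes. Avp, Oxt, Trh and Gal form a block of high values, Pmch and Hcrt reach 0.96, and the row of Pomc stays at or below 0.46.

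The library names came in 2 forms, used for 15 and 6 of the mice, which the labels do not explain. The 6 were PBS-treated female 104 and male 102, and HsTX1[R14A]-treated female 98 and males 81, 89 and 92. Name form was thus not balanced over treatment. The correlations were repeated within each form and within each treatment. In the 15 mice of the first form 24 pairs passed, and in the 6 mice of the other form 2 did, with a median r of 0.66 and 0.62. In PBS-treated mice 21 pairs passed and in HsTX1[R14A]-treated mice 9 did, with a median r of 0.67 and 0.72. Pmch and Hcrt had r = 0.96 and 0.92 in the 2 name forms, and 0.96 and 0.95 in PBS- and HsTX1[R14A]-treated mice. With sex and treatment removed from each gene, 27 pairs passed with a median r of 0.61.

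Genes that mark hypothalamic neurons rose and fell with the peptides. The mean log2 level of the 18 hypothalamus identity genes, none of them a member, correlated with 7 of the 9 genes at an adjusted p of at most 0.05 (144 relations of 9 members with 16 lists). Pearson r was 0.94 for Gal, 0.94 for Oxt, 0.87 for Avp, 0.84 for Trh, 0.82 for Ghrh, 0.79 for Pmch and 0.75 for Hcrt, with Spearman rho between 0.71 and 0.94 and adjusted permutation p-values between 0.000144 and 0.00311. Without the 2 mice farthest from the median r was 0.71 to 0.93 for these 7. Cartpt (r = 0.50, adjusted p = 0.0563) and Pomc (r = 0.06, adjusted p = 0.894) did not pass. The identity mean was lowest in PBS-treated male 101 (-2.01 on the log2 scale, centred on all mice) and highest in HsTX1[R14A]-treated female 71 (1.69). The identity genes are made by many kinds of hypothalamic neuron, and how much hypothalamus each RNA sample held was not recorded in the labels.

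**Figure D4:**
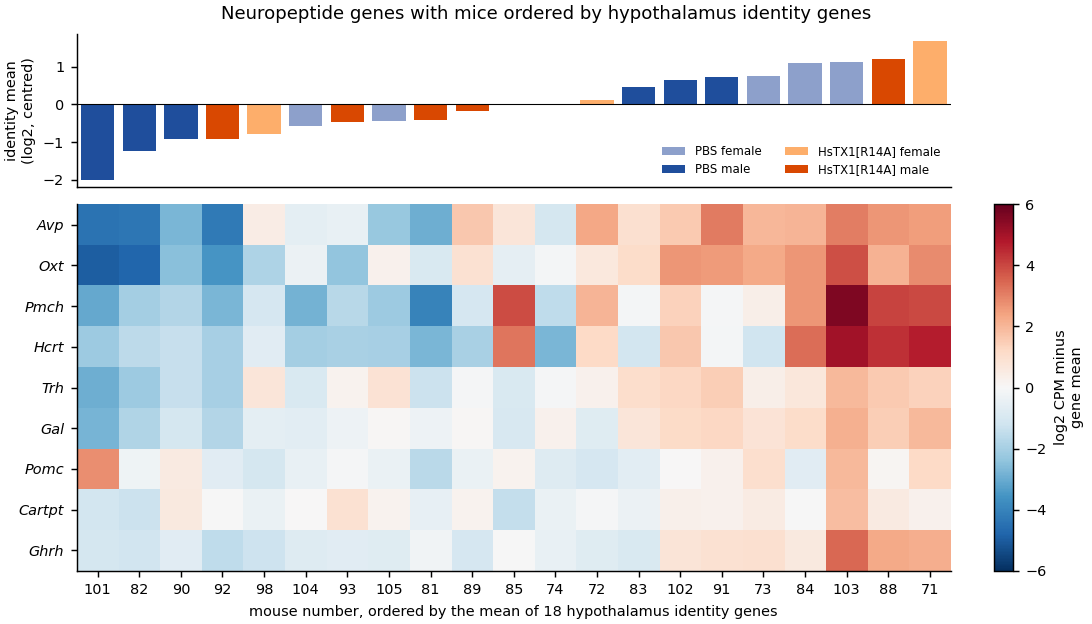
The upper bars give the mean log2 level of 18 hypothalamus identity genes per mouse, centred on all mice and colored by group, and the lower grid the log2 CPM of each of the 9 genes minus its own mean, with mice in the order of the bars. From left (male 101) to right (female 71) most rows turn from blue to red, while Pomc is high in male 101, and Pmch and Hcrt are high in female 85, which stands in the middle of the order.

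When the identity mean was regressed out of each gene, a choice made after the data were seen, 3 of the 36 pairs passed and the median r was 0.16. The SD of log2 CPM fell to 0.90 for Oxt and 0.44 for Gal (12.4% and 11.5% of the variance left), to 1.28 for Avp, 0.74 for Trh and 0.77 for Ghrh, and to 1.68 for Pmch and 1.76 for Hcrt (36.8% and 44.2% left), while Pomc kept 99.6% of its variance. Pmch and Hcrt remained correlated at r = 0.90 (rho 0.90, adjusted permutation p = 0.00036), between 0.88 and 0.91 with any mouse left out and at 0.92 and 0.83 in the 2 name forms. The low counts of Hcrt in many mice apply to these values too. Trh and Gal kept r = 0.67 (adjusted permutation p = 0.0132, 0.71 and 0.65 in the name forms). Pomc and Ghrh, both arcuate genes, had r = 0.72 (adjusted permutation p = 0.00684), with 0.81 in the 15 mice of the first form, -0.40 in the 6 of the other form, and 0.47 without the 2 mice farthest from the median of Pomc. Avp and Oxt no longer passed (r = 0.44, adjusted permutation p = 0.169).

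**Figure D5:**
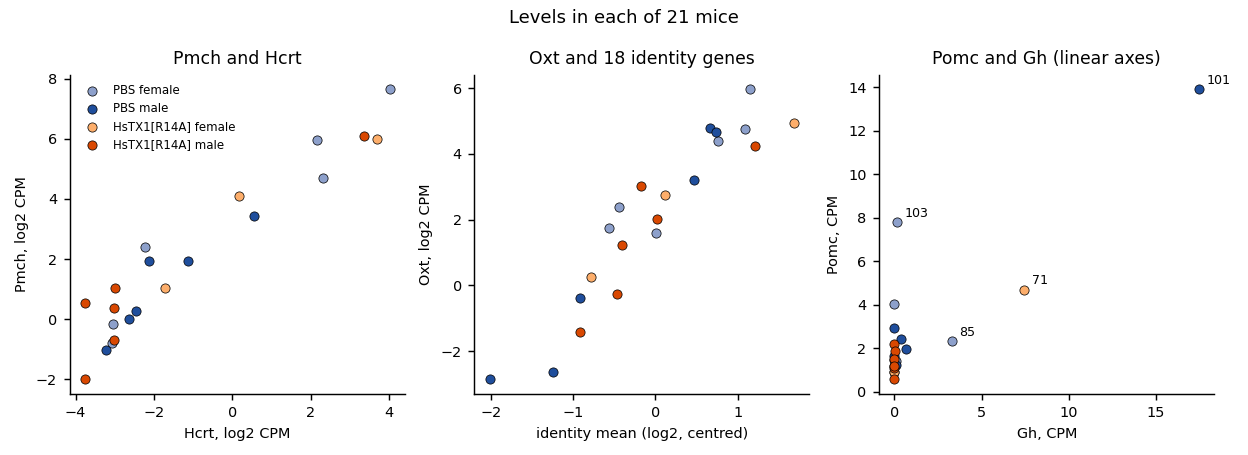
Each point is 1 of 21 mice, colored by group. Left, log2 CPM of Pmch (y) against Hcrt (x), with r = 0.96, where Hcrt values near -3 or below stand for 0 or 1 counts, middle, log2 CPM of Oxt (y) against the centred log2 mean of 18 hypothalamus identity genes (x), with r = 0.94, and right, CPM of Pomc (y) against CPM of Gh (x) on linear axes, with mice 101, 103, 71 and 85 numbered.

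Other lists moved with the members too. The 9 other hypothalamic peptides in the table (Nts, Pnoc, Tac2, Crh, Grp, Nmb, Gnrh1, Ucn3 and Prok2) correlated as a mean with 8 of the 9 members, with r up to 0.92 for Gal and 0.91 for Trh, and with Pomc at r = 0.06. Markers of cortex and hippocampus ran the opposite way, with r from -0.77 (Cartpt) to -0.47 (Pomc) and 8 of 9 members past the threshold. Markers of midbrain dopamine neurons passed for 7 members, with r up to 0.75 (Hcrt), and Slc6a3, the dopamine transporter, stood at 27.95 CPM in female 71 and 18.35 CPM in male 88 against 2.28 CPM or less in the other 19 mice. By Pearson r no member passed with markers of choroid plexus, striatum, cerebellum, serotonin neurons or glia and vessels, nor with the peptides made in many brain regions. By Spearman's rho Pmch (-0.61, adjusted permutation p = 0.0158) and Hcrt (-0.52, adjusted permutation p = 0.0498) passed with the peptides made in many regions, and Pomc with the cortex and hippocampus markers (-0.53, adjusted permutation p = 0.0418). Receptor genes passed for 7 members (r up to 0.81), thalamus markers for Pmch and Hcrt (r = 0.58 and 0.63, but not by rho) and pan-neuronal markers for 7 (r down to -0.72), while processing and breakdown genes passed for 1 member each, Pomc, at r = -0.61 and -0.65. The part of regional makeup in the members' values was not tested.

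By likeness over the 21 mice, searched among 14501 other genes with a mean of at least 1 CPM, the closest to the mean of the members were Atg9b (r = 0.94), Rmst (0.93), Gpx3 (0.92), Fezf1 (0.92), Mrap2 (0.91), Celf6 (0.91), Scn9a (0.91), Esr1 (0.91), Zcchc12 (0.90) and Snx8 (0.90). Fezf1, a hypothalamic transcription factor, was among the 3 most like genes for Avp (r = 0.92), Oxt (0.94) and Trh (0.89). The nearest to Oxt was Calcr, the calcitonin receptor (0.95), followed by Pgr15l (0.95). Avp was also matched by Esr1, the estrogen receptor alpha (0.88), and Mrap2, a melanocortin receptor partner (0.88). Trh was matched by Fstl5 (0.89) and Mrap2 (0.88), and Gal by AW551984 (0.93), Gabrq (0.93) and Calcr (0.93). Pmch and Hcrt shared 2 of their 3 nearest genes, Zap70 (0.86 and 0.88) and Rbms3 (0.84 and 0.84), with Rmst (0.86) and Pnma3 (0.85) as the third. Cartpt was matched by Crabp1 (0.89), Pld6 (0.89) and Tmem91 (0.85). The nearest to Pomc were Rbm8a (0.84), Ppp1r14c (0.82) and Slbp (0.80), none of which is on the hypothalamic or pituitary lists. Likeness was described over mice, without a test.

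The genes that receive, process and break down the peptides were tested in the same fit. Of 19 receptor genes, 11 were in the table. With HsTX1[R14A], 2 of the 11 were higher, none was lower and 9 did not pass, where 31.6% of all tested genes passed (2526 higher and 2618 lower), with a median log2 fold change of 0.24 beside -0.01 over all genes. Oxtr, the oxytocin receptor, averaged 5.65 ± 1.49 CPM in PBS-treated mice and 8.56 ± 2.21 CPM in HsTX1[R14A]-treated mice (log2 fold change 0.66 ± 0.13 SE, edgeR adjusted p = 0.0151). Oprm1, the mu opioid receptor that beta-endorphin activates, averaged 1.28 ± 0.59 and 2.47 ± 1.30 CPM (log2 fold change 1.08 ± 0.27, edgeR adjusted p = 0.0169). Mchr1, the receptor of melanin-concentrating hormone and the most abundant of the list, averaged 19.6 ± 2.58 and 22.1 ± 2.91 CPM and did not pass (log2 fold change 0.17 ± 0.09, edgeR adjusted p = 0.136), nor did Trhr (7.24 ± 4.10 and 6.49 ± 2.24 CPM, edgeR adjusted p = 0.829).

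All 15 genes of peptide processing were in the table, and 6 were higher with HsTX1[R14A], none was lower and 9 did not pass, beside the same 31.6% over all tested genes. They were Pam, Furin, Chgb, Pcsk1, Vgf and Chga. Pcsk1, a prohormone convertase, averaged 16.9 ± 3.58 CPM in PBS-treated mice and 22.8 ± 5.34 CPM in HsTX1[R14A]-treated mice (log2 fold change 0.47 ± 0.13, edgeR adjusted p = 0.0198). Vgf, a granin-like protein of dense-core vesicles, averaged 117 ± 64.0 and 213 ± 77.8 CPM (0.98 ± 0.28, edgeR adjusted p = 0.021), and Chga, chromogranin A, 68.0 ± 21.97 and 95.2 ± 20.96 CPM (0.53 ± 0.16, edgeR adjusted p = 0.0248). The most abundant processing genes did not pass, namely Cpe at 1316 ± 181 and 1352 ± 166 CPM, Pcsk1n at 522 ± 74.8 and 519 ± 74.4 CPM and Scg5 at 553 ± 111 and 462 ± 103 CPM. These proteins are not particular to the hypothalamus.

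Of 12 genes of peptide breakdown, 3 were higher, 1 was lower and 8 did not pass, a share close to the 31.6% of all tested genes. Lnpep, a peptidase that cleaves oxytocin and vasopressin, averaged 19.3 ± 4.98 and 29.3 ± 5.07 CPM (log2 fold change 0.64 ± 0.14, edgeR adjusted p = 0.0151). Ece1, an endothelin-converting enzyme, averaged 28.9 ± 9.02 and 41.8 ± 10.4 CPM (0.59 ± 0.17, edgeR adjusted p = 0.0206), and Npepps, a cytosolic aminopeptidase, 159 ± 13.4 and 178.5 ± 9.75 CPM (0.18 ± 0.05, edgeR adjusted p = 0.0244). Dpp4, dipeptidyl peptidase 4, fell from 5.70 ± 1.34 to 3.78 ± 1.03 CPM (-0.67 ± 0.14, edgeR adjusted p = 0.0151). Mme, neprilysin, averaged 29.9 ± 6.09 and 30.3 ± 6.43 CPM and did not pass (edgeR adjusted p = 0.99). Trhde, which degrades Trh, averaged 28.4 ± 3.62 and 27.4 ± 5.97 CPM and did not pass (edgeR adjusted p = 0.65).

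None of the 9 other hypothalamic peptides passed for treatment. The share of all tested genes that passed, for this list and those that follow, was 31.6%. Nts, neurotensin, averaged 17.9 ± 12.99 and 12.1 ± 3.87 CPM (edgeR adjusted p = 0.311), Pnoc 9.18 ± 1.84 and 8.46 ± 2.72 CPM (0.651), Tac2 6.44 ± 1.80 and 7.97 ± 2.48 CPM (0.117) and Gnrh1 2.07 ± 2.08 and 0.911 ± 0.510 CPM (0.137). Of the 10 peptides made in many brain regions 1 did, Vip, which averaged 39.1 ± 11.5 CPM in PBS-treated mice and 29.7 ± 10.4 CPM in HsTX1[R14A]-treated mice (log2 fold change -0.49 ± 0.18, edgeR adjusted p = 0.0412). Vip passed in 11 of the 21 fits that left out 1 mouse, and it did not pass with the length and GC trend removed (Vip treatment effect -0.22, edgeR adjusted p = 0.324) or without the sex term (-0.40, edgeR adjusted p = 0.117). Of the same list Penk, Sst, Cck and Adcyap1 did not pass, with edgeR adjusted p between 0.0865 and 0.935. Of the 18 hypothalamus identity genes 1 was higher, Tbx3, at 1.49 ± 0.30 and 2.18 ± 0.88 CPM (0.60 ± 0.16, edgeR adjusted p = 0.0174), and the list's median log2 fold change was 0.18. With the length and GC trend removed the Tbx3 treatment effect was 0.21 (edgeR adjusted p = 0.292). Six3, Gpr101 and Irs4, the most abundant identity genes, and Lhx1 and Lepr did not pass, with edgeR adjusted p between 0.0816 and 0.905. Among glia and vessel markers 1 of 10 was higher (Flt1) and 5 were lower (Gfap, Aqp4, Mbp, Mog and P2ry12). Among midbrain dopamine (Slc6a3), serotonin (Gata2), cortex and hippocampus (Rasgrf2), and neuron markers (Syt1), 1 gene each was higher. Slc6a3, high in female 71 and male 88, was not called by DESeq2 or limma's voom. Nor was it called with the length and GC trend removed or with the identity mean as a covariate. No gene passed among the choroid plexus, striatum, cerebellum, thalamus and pituitary markers. No gene of these lists passed for sex, for which 0.0552% of all tested genes passed. When either name form or either sex was analysed alone, no gene in the whole table passed for treatment. With the name form as a covariate, Oxtr (edgeR adjusted p = 0.0353) and Oprm1 (0.0388) were among the 1999 genes that passed, whereas Chga (0.0501) and Npepps (0.0554) were not. Npepps also did not pass with the length and GC trend removed, nor Chga without the sex term.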

How the data were processed

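Whole-brain RNA of 21 mice was sequenced by the authors, aligned to GRCm38 with STAR and quantified with Salmon, and estimated counts per gene were deposited without normalization. Labels and methods name different library kits. The members and lists were chosen with earlier results of these data known. Estimated counts (90.5% within 0.01 of a whole number) were rounded. Genes passing filterByExpr by treatment and sex (16303 of 16318) were scaled by TMM and fitted in edgeR 4.0.16 (R 4.3.3; glmQLFit, glmQLFTest) with sex and treatment, p-values being adjusted over all genes. Log2 CPM used a prior count of 2. Correlations were permuted in Python 3.11.15 with numpy 2.4.6, with exact enumeration for 9 or fewer mice. Alternatives used limma 3.58.1 and DESeq2 1.42.0. The procedure was tested on simulated data. Transcript lengths came from GENCODE. The deposited columns of fold change, p-value and FDR hold the authors' own comparison and were not used, nor were 53 per-sample columns of other libraries or CPM. Replicates are separate mice. Depth gives counting error only, and intervals and limits from counts cover no other error. Named genes were all members, per peptide and identity list the 3 highest by level and the 3 with the smallest treatment p-value, and the nearest genes by r. Region and cell type lists are given by counts, with the genes that passed. Trhde, genes named to complete a count, markers by mouse, and single mice were chosen after their values were seen.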

Additional observations from a re-analysis of the deposited data

Results flagged for a closer look

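Within groups of 6 mice, 27 combinations of gene and group were examined for a mouse that stood far from the others by Dixon's ratio on the log2 scale, and 4 were marked. Chance marks about 1 group in 20. Of the 4, 3 were the same mouse, HsTX1[R14A]-treated male 88, in which Pmch stood at 68.5 CPM against 0.178 to 1.97 CPM in the other 5 treated males, Hcrt at 10.2 CPM against 0 to 0.0518 CPM, and Ghrh at 1.66 CPM against 0.0496 to 0.237 CPM. The fourth was PBS-treated male 101, with Pomc at 13.9 CPM against 1.25 to 2.93 CPM in the other PBS-treated males. The 3 HsTX1[R14A]-treated females were too few for this check.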

How the results depend on the processing

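None of the member genes passed for treatment under any alternative except Pomc, where DESeq2 called 1 member and leaving out single mice called 0 to 1 members (1 without HsTX1[R14A]-treated female 71). None passed for sex or for the interaction. The directions of the member effects were not stable, and the causes of the changes below were not tested. On the log2 scale, limma's voom turned the Avp treatment effect to 0.80, the Trh treatment effect to 0.39, the Gal treatment effect to 0.19, the Cartpt treatment effect to 0.16 and the Ghrh treatment effect to -0.13. With name form as a covariate Avp was 0.052, Gal 0.0062 and Cartpt 0.023. In the more common name form alone Avp was 0.36, Trh 0.37, Gal 0.48 and Cartpt 0.19. The less common form alone had only mice 102 and 104 as its PBS-treated mice. There the Pmch treatment effect was -2.03, the Hcrt treatment effect -2.83, Ghrh -1.77 and the Chga treatment effect -0.017. With a length and GC trend removed Avp was 0.76, the Oxt treatment effect 0.21, Trh 0.46, Gal 0.42 and Cartpt 0.35. With the hypothalamus identity mean as a covariate Avp was 0.57, Pmch -0.44, Hcrt -0.061, Trh 0.11 and Ghrh -0.46. Without the sex term Pmch was -0.56 and Ghrh -0.045. In females alone Avp was 0.37, Pmch -0.83, Trh 0.20, Gal 0.0095 and Ghrh -0.43, and in males alone Cartpt was 0.32.

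For sex (male minus female), the less common name form alone gave the Avp sex effect as 0.57, the Oxt sex effect as 2.35, the Pmch sex effect as 0.74, the Hcrt sex effect as 1.27, the Gal sex effect as 0.85, the Cartpt sex effect as 0.30 and the Ghrh sex effect as 1.43. The Pomc sex effect was -0.018 with DESeq2, -0.10 with the length and GC trend removed and -0.084 with the identity mean as a covariate, where Gal was 0.19 and Cartpt 0.022.

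Leaving out 1 mouse at a time gave treatment effects from -0.57 to 0.61 for Avp, -0.16 to 0.19 for Cartpt, -0.47 to 0.19 for Gal, -0.63 to 0.79 for Ghrh, -0.66 to 1.81 for Hcrt, -1.23 to 1.35 for Pmch and -0.38 to 0.15 for Trh. It gave sex effects from -0.37 to 0.074 for Cartpt and -0.57 to 0.51 for Pomc, and interactions from -1.77 to 0.43 for Avp, -0.56 to 1.44 for Gal, -0.44 to 3.45 for Ghrh, -3.78 to 4.89 for Hcrt, -1.12 to 1.48 for Oxt, -0.85 to 4.22 for Pmch and -1.60 to 0.15 for Pomc.

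Over the whole table, the genes called for treatment numbered 1999 with name form as a covariate, 0 in either name form alone, 2438 with the length and GC trend removed, 2984 without the sex term, and 2289 to 6614 with 1 mouse left out. The genes called for sex numbered 26 with DESeq2, 1 among genes with at least 10 counts in every mouse, 17 with the length and GC trend removed, and 7 to 11 with 1 mouse left out. Of the 36 pairs of members, 9 passed in HsTX1[R14A]-treated mice alone, 2 in the less common name form alone, 3 with the identity mean removed (chosen after the data were seen), and 23 (without PBS-treated female 103) to 31 (without PBS-treated male 101) with 1 mouse left out. Requiring at least 10 counts in every mouse kept 3 of the 9 members, and males alone allowed 7 to be tested. Hcrt and Ghrh, with under 10 counts in 13 and 14 mice, are limited by depth. The paper states that mice were assigned to peptide or PBS at random within cages. The labels give each mouse its own number but no cage, so no analysis paired by cage was possible.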
